A study of Mus musculus with 56 samples.

Results

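The genes described here are 10 genes of the NRF2 antioxidant pathway: the transcription factor gene Nfe2l2 and 9 of its classical targets, Txnrd1, Srxn1, Gclc, Gclm, Nqo1, Hmox1, Gstm1, Gsta1 and Gsta2. They were chosen by name as pathway genes, though with earlier results of these data known, and all 10 were among the 45513 genes counted in each liver. The livers came from 56 female APOE*3Leiden.CETP mice, 8 in each of 7 groups, and polyadenylated RNA was sequenced at the end of treatment. APOE*3Leiden.CETP mice carry human APOE*3-Leiden and CETP transgenes, which give them a human-like lipoprotein metabolism. Mice of all groups, the control included, entered the study at 9 to 14 weeks of age, so they were older when the livers were taken, and were fed a Western-type diet with 15% cacao butter and 0.15% cholesterol. The control group received the vehicle by gavage. The drug groups received BCR-ABL1 tyrosine kinase inhibitors, used against chronic myeloid leukemia. Imatinib was given at 150 mg/kg in each of 2 gavages per day. Nilotinib was given at 10 or 30 mg/kg and ponatinib at 3 or 10 mg/kg, these 4 groups receiving 1 drug gavage per day. A reference group received the vehicle by gavage and L-NAME, an inhibitor of nitric oxide synthases, at 0.12 to 0.20% in the drinking water. The study raised oxidative stress as a process in these livers, and the comparisons below ask whether the transcripts of NRF2 targets differed between treated and control livers.

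NRF2, the protein made from Nfe2l2, is held in the cytosol and marked for degradation by KEAP1. Oxidants and electrophiles modify cysteines of KEAP1, after which NRF2 builds up, enters the nucleus, pairs with a small MAF protein and binds antioxidant response elements near its target genes. In the liver, the targets make and recycle glutathione and thioredoxin, reduce quinones, degrade haem and couple foreign compounds to glutathione, and they are commonly used as transcript reporters of NRF2 activity.

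The antioxidant response element core, TGACNNNGC on either strand, is the letter pattern through which NRF2 is known to act, so its occurrences near the members' start sites are shown. Its letters also cover part of the sites of AP-1 and other MAF-binding factors. RefSeq promoters on GRCm38.p6, reaching from 250 bases before to 50 bases after a start site, were at hand for 8 of the 10 genes, all but Gclc and Hmox1. Of these 8 genes, 4 held the core in at least 1 promoter, compared with 14.0% of the 27025 genes in the same table. The capitals mark the 9 letters of the core, written GCNNNGTCA where it lies on the opposite strand, and each sequence reads along the strand of the gene.
Gclm, chr3:122245413-122245441, plus strand: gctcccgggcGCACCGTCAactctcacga
Srxn1, chr2:152105542-152105570, plus strand: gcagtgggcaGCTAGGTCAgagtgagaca
Txnrd1, chr10:82859104-82859132, plus strand: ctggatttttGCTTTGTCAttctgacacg
Nfe2l2, chr2:75704885-75704913, minus strand: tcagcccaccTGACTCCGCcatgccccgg
The first capital letter lay at position -134 from the start site for Gclm, -92 for Txnrd1 and -240 for Nfe2l2, and at position 29 after the start for Srxn1. Txnrd1 has 3 promoters in the table, and the core was in 1 of them. The windows of Nqo1, Gstm1, Gsta1 and Gsta2 did not hold these letters, which says nothing about elements farther away.

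The reads assigned to genes numbered 5342379 to 97473341 in a liver (median 7570238). A single library, L-NAME mouse 2, was far deeper than the next one, which had 17996732 reads. Uniquely aligned reads outside annotated exons, named reads outside genes below, made up 7.97% ± 0.42 of the control libraries (SD, n = 8). Their mean share in the treated groups lay between 8.53%, for ponatinib 3 mg/kg, and 11.04% ± 1.99, for ponatinib 10 mg/kg, with L-NAME at 10.99% ± 2.45. It was above every control mouse in all 8 mice of 4 groups, namely both nilotinib groups, ponatinib 10 mg/kg and L-NAME. The 8 hepatocyte markers summed to between 68794 and 146799 CPM (the reads of a gene scaled to a common library size) in the 56 livers, and no marker of hepatocytes, macrophages, stellate cells, endothelium or cholangiocytes was at 0 in a whole group. The samples are whole liver, so fewer cells of a type and less RNA per cell cannot be told apart.

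Per kilobase of exon, Gstm1 was the most abundant member in control livers, at 1019 ± 406 CPM per kb (SD, n = 8), and Gsta1 the least, at 3.48 ± 5.58. Gclc, the catalytic subunit of glutamate-cysteine ligase, came second at 92.4 ± 24.7 CPM per kb. Srxn1, Gclm, Nfe2l2, Txnrd1 and Hmox1 followed with means between 41.1 and 27.4 CPM per kb, and neighbours in that order differed by less than the larger of their SDs. Gsta2 had 17.5 ± 13.8 and Nqo1 12.6 ± 7.68 CPM per kb. Gsta1, Gsta2 and Nqo1, often used as reporters of NRF2 activity, thus had the lowest means of the members in control livers on this diet.

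EdgeR called no member higher in any treated group. Each group was compared with control by edgeR's quasi-likelihood test in 1 fit of all mice over 14314 genes, and a gene was called at a Benjamini-Hochberg adjusted p below 0.05. Of the 60 tests of a member against control, 4 were called and all 4 were lower: Txnrd1, Srxn1 and Gsta2 with ponatinib 10 mg/kg, and Txnrd1 with L-NAME. With ponatinib 10 mg/kg, 3 of the 10 members were called, beside 13.1% of all genes in either direction and 5.87% in the lower direction. With L-NAME it was 1 of 10, beside 11.8% of all genes in either direction and 6.24% in the lower direction. A count of 1 in 10 lies between these shares, so it does not stand out from genes at large. The 6 comparisons share the same 8 control mice.

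In the other 4 groups, edgeR called 0 of the 10 members. The background was 10.3% of genes with imatinib, 1.41% and 5.77% with nilotinib 10 and 30 mg/kg, and 0.0419% (6 genes) with ponatinib 3 mg/kg. An unadjusted p below 0.05 was reached by 3 members with imatinib (23.5% of all genes), 1 with nilotinib 10 mg/kg (14.2%) and 1 with nilotinib 30 mg/kg (18.7%). It was reached by 6 members with ponatinib 3 mg/kg, beside 9.96% of all genes. Of these, Hmox1 was higher, and Srxn1, Gclc, Nqo1, Gsta2 and Gsta1 were lower. DESeq2 also called 0 members in these groups, whereas limma with quality weights called Gstm1 with imatinib and Txnrd1 with nilotinib 10 mg/kg. Over all genes limma called 3320 and 1240 in these comparisons, where edgeR called 1471 and 202. At an unadjusted p below 0.01, the cut-off used in the study, 4 members passed with ponatinib 10 mg/kg beside 15% of all genes, 3 with ponatinib 3 mg/kg beside 3.14%, 1 with L-NAME beside 14% and 1 with imatinib beside 12.9%. None passed with nilotinib 10 mg/kg, where 5.97% of genes did, or with nilotinib 30 mg/kg, where 9.35% did. Among those that passed with ponatinib 3 mg/kg, Srxn1 and Gclc were lower and Hmox1 higher. The median log2 fold change of the 10 members was -0.53 with ponatinib 10 mg/kg, -0.52 with ponatinib 3 mg/kg and -0.35 with L-NAME, where the medians of all genes tested were -0.01, -0.01 and 0.02. It was -0.07 with imatinib and -0.08 and 0.02 with nilotinib 10 and 30 mg/kg. These medians share the same control mice, of which mouse 6 was the highest in 6 members. The medians were not computed without that mouse, and some values of Srxn1, Nqo1 and Gstm1 without it are given below.

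**Figure D1:**
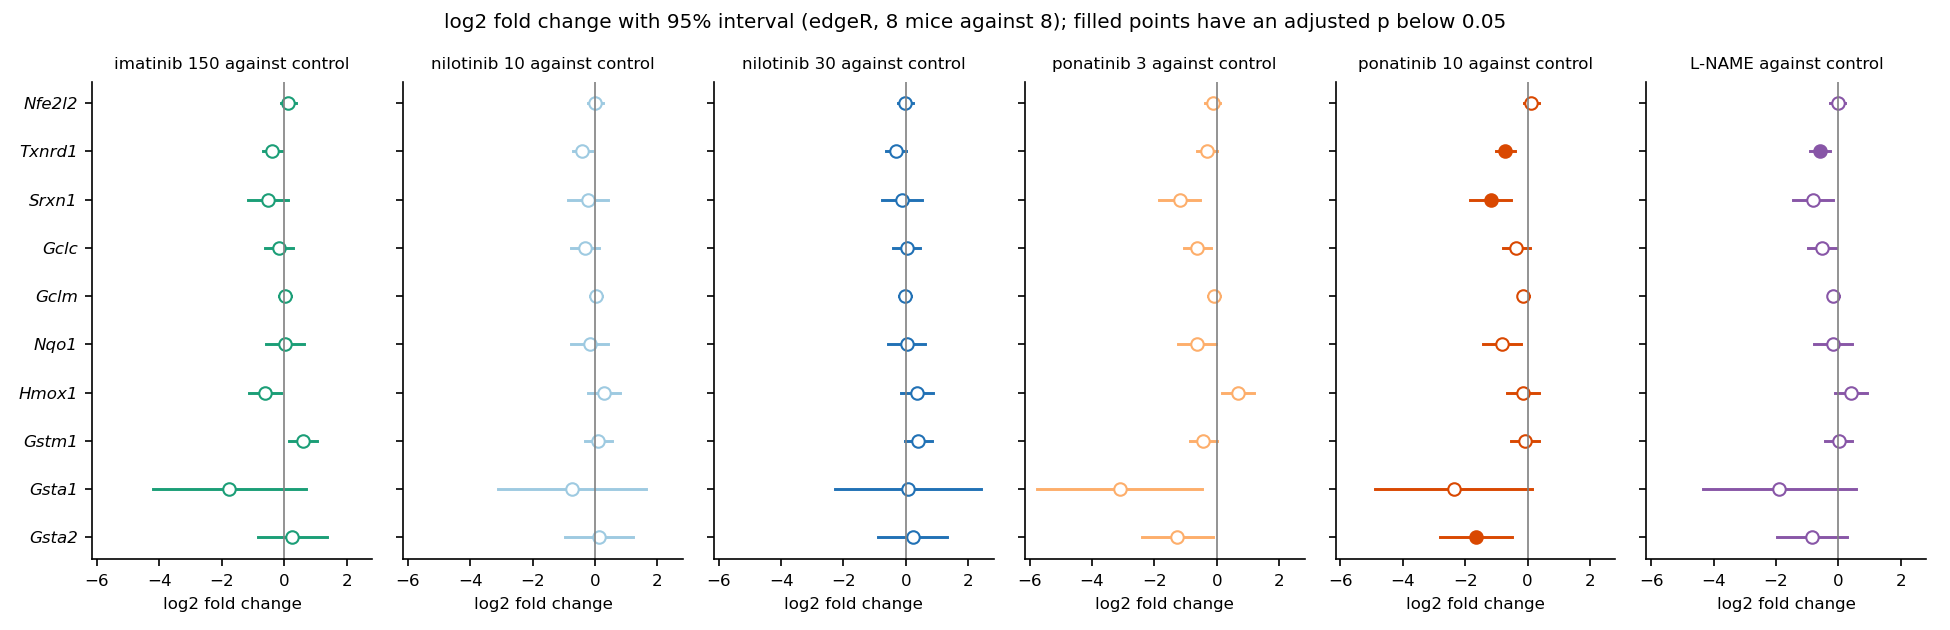
The log2 fold change of each member against control (x axis) is plotted with its 95% interval for the 6 treated groups, with 8 mice in each group; filled points have an adjusted p below 0.05 in edgeR's quasi-likelihood test. All 4 filled points lie below 0, namely Txnrd1, Srxn1 and Gsta2 with ponatinib 10 mg/kg and Txnrd1 with L-NAME, and the intervals of Gsta1 are the widest.

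Nfe2l2, which encodes NRF2 itself, was not called in any group against control. Its level in control mice was 97.5 CPM at the lowest, 133 at the median and 157 at the highest, and with ponatinib 10 mg/kg these values were 84.1, 151 and 168 CPM. The ranges of the groups overlapped throughout. Against control the log2 fold change was between -0.13 with ponatinib 3 mg/kg and 0.14 with imatinib, each with an SE of 0.12, and no adjusted p was below 0.54. The 95% intervals of the 6 groups together spanned -0.37 (ponatinib 3 mg/kg) to 0.38 (imatinib). NRF2 is controlled mainly through the stability of the protein, which transcript counts do not measure.

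Genes that regulate NRF2 were called in 5 of the 6 treated groups, 1 to 3 genes in each. Of 12 such genes, 1 was higher and 1 lower with ponatinib 10 mg/kg and with L-NAME, 1 was higher with imatinib, 1 was lower with nilotinib 10 mg/kg, 1 was higher and 2 lower with nilotinib 30 mg/kg, and 0 were called with ponatinib 3 mg/kg. The shares of all genes called in these groups, in that order and in either direction, were 13.1%, 11.8%, 10.3%, 1.41%, 5.77% and 0.0419%. Park7, which encodes the oxidation-sensitive protein DJ-1, was the higher gene in all 4 cases, with log2 fold changes from 0.38 ± 0.12 with nilotinib 30 mg/kg and L-NAME to 0.46 ± 0.12 with ponatinib 10 mg/kg and 0.56 ± 0.12 with imatinib (SE). Nfe2l1, an NRF2 relative best known for regulating proteasome genes, was lower with either dose of nilotinib and with ponatinib 10 mg/kg (each -0.37 ± 0.10) and with L-NAME (-0.45 ± 0.10). Keap1, the repressor of NRF2, and Bach1, which competes with NRF2 for antioxidant response elements, had log2 fold changes of -0.17 ± 0.11 and -0.25 ± 0.15 with ponatinib 10 mg/kg and were not called there. Bach1 was the other gene lower with nilotinib 30 mg/kg (-0.55 ± 0.15).

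Txnrd1, cytosolic thioredoxin reductase, which uses NADPH to keep thioredoxin reduced, was lower in 2 groups. In control mice its lowest, median and highest levels were 153, 232 and 345 CPM. With ponatinib 10 mg/kg they were 125, 139 and 192 CPM, and with L-NAME 115, 155 and 206 CPM. With ponatinib 10 mg/kg, 7 of 8 mice were below every control mouse and the eighth, mouse 4 at 192 CPM, was below the control median. With L-NAME, 4 of 8 mice were below every control mouse and all 8 below the control median. The mean fell from 235 ± 57.1 CPM (SD, n = 8) to 144 ± 21.7 with ponatinib 10 mg/kg, a log2 fold change of -0.71 ± 0.16 (SE, edgeR adjusted p = 0.00134), and to 156 ± 32.8 with L-NAME, -0.59 ± 0.16 (adjusted p = 0.0074).

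In the other groups Txnrd1 was at 181 ± 27.3 CPM with imatinib, 178 ± 63.2 and 189 ± 59.7 with nilotinib 10 and 30 mg/kg and 190 ± 24.4 with ponatinib 3 mg/kg (SD, n = 8). All 4 means were thus below control, with log2 fold changes between -0.40 and -0.31, but their adjusted p-values were between 0.119 and 0.514. Leaving out each control, ponatinib 10 mg/kg or L-NAME mouse in turn kept Txnrd1 called in 16 of 16 fits in both comparisons. With the share of reads outside genes as a covariate, its log2 fold change was -0.57 with ponatinib 10 mg/kg (adjusted p = 0.0661) and -0.45 with L-NAME (adjusted p = 0.179), and neither was called. That share was above every control mouse in all 8 mice of both groups, so it cannot be told apart from treatment.

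Srxn1 encodes sulfiredoxin, which reactivates over-oxidized peroxiredoxins. Its lowest, median and highest levels were 51.0, 89.0 and 287 CPM in the control group, 43.0, 48.3 and 66.1 with ponatinib 3 mg/kg and 28.0, 46.9 and 103 with ponatinib 10 mg/kg. The control range was wide because mouse 6 reached 287 CPM, whereas 6 of 8 mice at each dose of ponatinib were below every control mouse. The log2 fold change was -1.18 ± 0.33 at 10 mg/kg (SE, edgeR unadjusted p = 0.000618, adjusted p = 0.0101) and -1.19 ± 0.33 at 3 mg/kg (unadjusted p = 0.000567, adjusted p = 0.144), so the higher dose alone was called although the unadjusted values were close. Between the doses Srxn1 differed by 0.01 ± 0.32 (adjusted p = 0.996), with a 95% interval from -0.64 to 0.66.

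With L-NAME the levels of Srxn1 were 41.9, 60.6 and 108 CPM at the lowest, median and highest mouse, a log2 fold change of -0.81 ± 0.32 (SE, adjusted p = 0.0953) that was -0.47 without control mouse 6 (adjusted p = 0.405) and -0.43 in limma (adjusted p = 0.297). The ranges of the imatinib and nilotinib groups overlapped that of control, with log2 fold changes between -0.51 and -0.14 and no call. The highest mouse reached 239 CPM with nilotinib 10 mg/kg, below the highest control, and 323 CPM with nilotinib 30 mg/kg, above it. Without control mouse 6, the difference with ponatinib 10 mg/kg was -0.84 and lost its call (adjusted p = 0.0733); it kept the call without any other mouse. With reads outside genes as a covariate it was -0.90 (adjusted p = 0.185).

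Other genes of the glutathione and thioredoxin system were called in both directions. Of 6 such genes tested, 2 were higher and 1 lower with ponatinib 10 mg/kg, 1 was higher with L-NAME, 4 were higher with imatinib and 2 with nilotinib 30 mg/kg. The shares of all genes called in these groups, in that order and in either direction, were 13.1%, 11.8%, 10.3% and 5.77%. Txn1, the thioredoxin that Txnrd1 reduces, rose from 124 ± 15.1 CPM in control mice to 172 ± 43.6 with ponatinib 10 mg/kg (SD, n = 8), a log2 fold change of 0.47 ± 0.12 (SE, adjusted p = 0.00367), and to 181 ± 14.9 with L-NAME, 0.54 ± 0.12 (adjusted p = 0.00104), and it was also higher with imatinib (0.56 ± 0.12) and nilotinib 30 mg/kg (0.51 ± 0.12). Prdx1, a peroxiredoxin and itself often listed as an NRF2 target, rose with imatinib (0.43 ± 0.08), nilotinib 30 mg/kg (0.29 ± 0.08) and high-dose ponatinib (0.24 ± 0.08). Gsr, glutathione reductase, fell with ponatinib 10 mg/kg (-0.35 ± 0.12). Among 6 genes that supply NADPH, the reductant that these enzymes use, 0 were called with the 3 inhibitors at any dose and 3 were lower with L-NAME, namely Idh1, Me1 and Pgd. Of all genes, 6.24% were called lower with L-NAME.

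Gclc and Gclm encode the catalytic and modifier subunits of glutamate-cysteine ligase, which carries out the rate-limiting step of glutathione synthesis. Gclm was the member with the smallest spread, between 189.8 and 272 CPM in control mice with a median of 231 CPM. Its group means lay between 207 ± 19.4 CPM with L-NAME and 237 ± 41.4 with nilotinib 10 mg/kg (SD, n = 8), and its log2 fold changes against control were between -0.16 and 0.04, each with an SE of 0.09. None was called, and the 95% intervals reached from -0.35 to 0.22 over all 6 groups.

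Gclc varied more. Its lowest, median and highest levels were 234, 341 and 521 CPM in the control group, 130, 242 and 281 with ponatinib 3 mg/kg, and 165, 207 and 564 with ponatinib 10 mg/kg. With ponatinib 10 mg/kg the mice split, 5 of 8 being below every control mouse and 1, mouse 4, above every control mouse. The log2 fold change was -0.36 ± 0.22 (SE, adjusted p = 0.314) and became -0.60 (adjusted p = 0.0408) without mouse 4 and -0.50 (adjusted p = 0.0489) in limma. With ponatinib 3 mg/kg it was -0.62 ± 0.22 (unadjusted p = 0.00717, adjusted p = 0.295), with all 8 mice below the control median, and with L-NAME -0.52 ± 0.22 (adjusted p = 0.125), again with all 8 mice below the control median. The fit of the L-NAME and control groups alone called Gclc (-0.51, adjusted p = 0.0241). With imatinib and the nilotinib doses the log2 fold changes lay between -0.31 and 0.02.

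**Figure D2:**
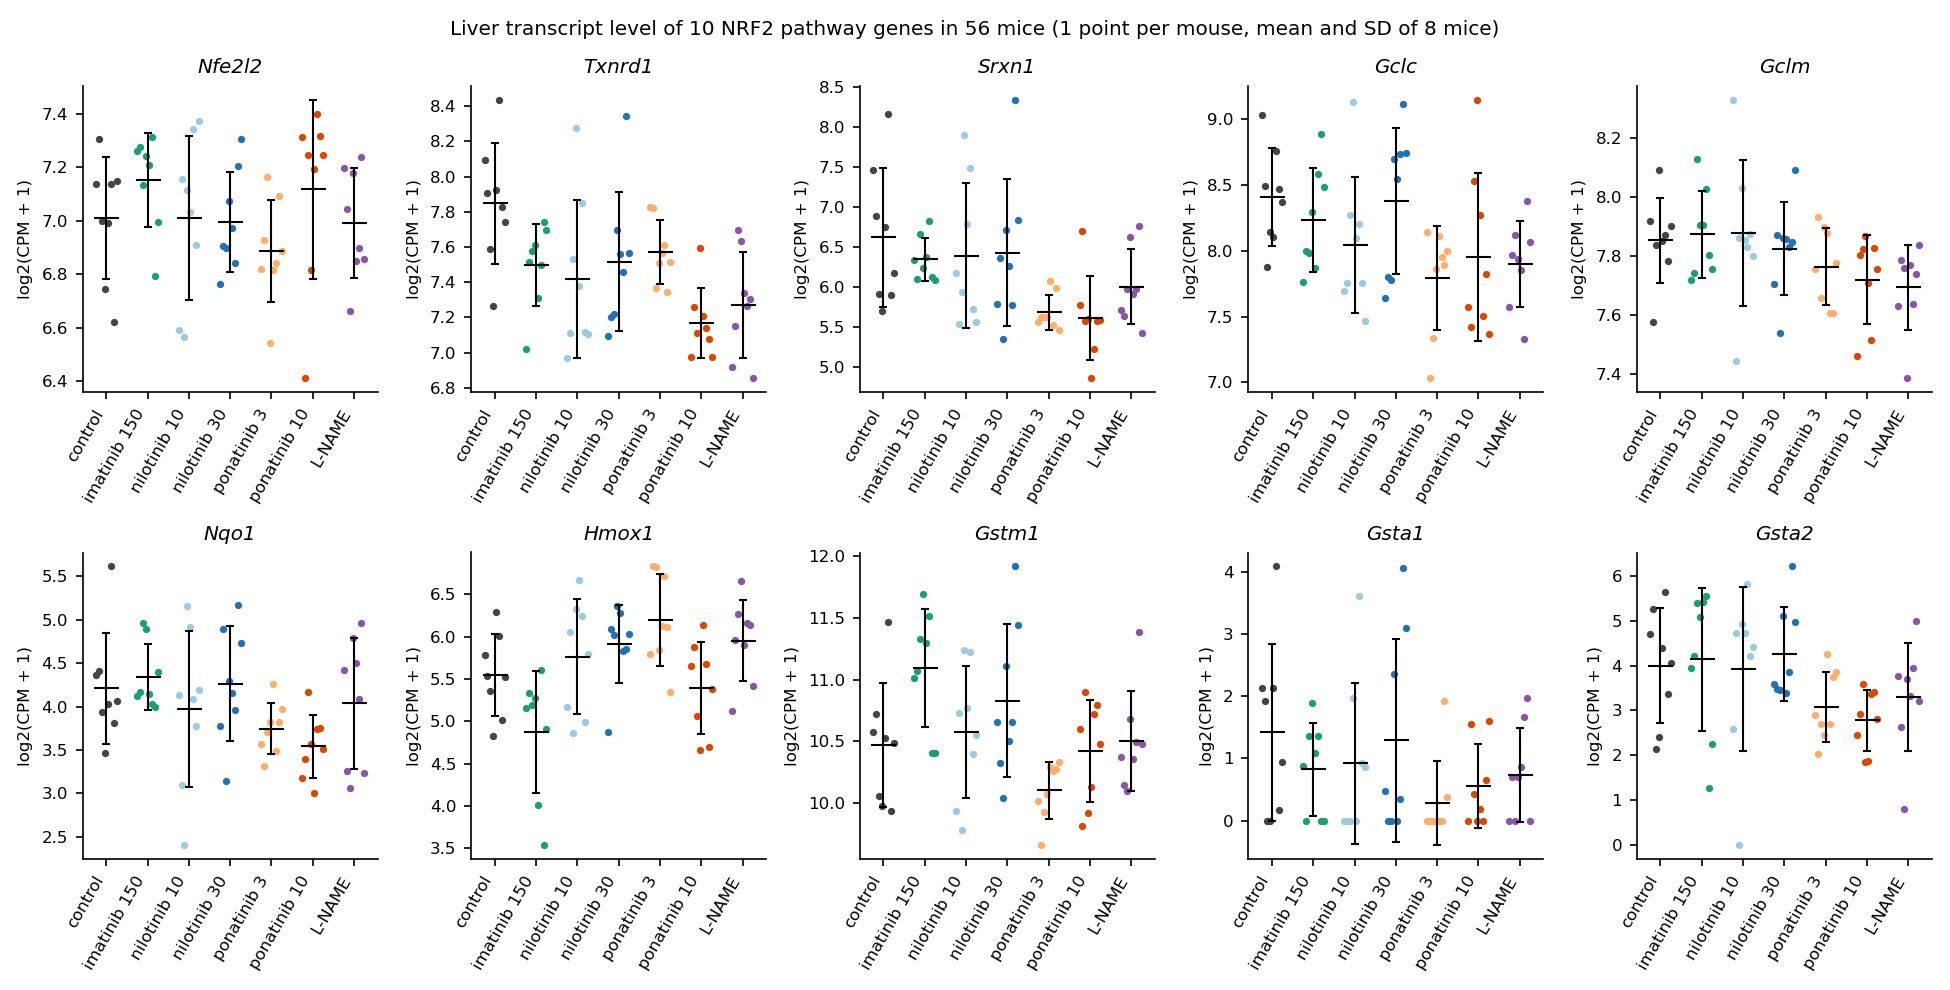
Each panel plots 1 member, with log2(CPM + 1) on the y axis and the 7 groups on the x axis; each point is 1 mouse, and the bars give the mean and SD of 8 mice on the log2 scale. Txnrd1 in ponatinib 10 mg/kg mice sits below nearly all control mice, and many Gsta1 points lie at 0. Srxn1 is low in most mice at both ponatinib doses, but narrow only at the lower of these doses.

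Nqo1 encodes NAD(P)H:quinone oxidoreductase, which reduces quinones without releasing radicals and is a standard reporter of NRF2. Its lowest, median and highest levels were 10.0, 15.5 and 47.9 CPM in the control group, 8.96, 12.6 and 18.1 with ponatinib 3 mg/kg and 7.06, 10.6 and 16.9 with ponatinib 10 mg/kg. The ranges overlapped, but 7 of 8 mice at each dose of ponatinib were below the control median and 3 of 8 at 10 mg/kg were below every control mouse. The log2 fold change was -0.83 ± 0.30 with ponatinib 10 mg/kg (SE, edgeR adjusted p = 0.0581) and -0.63 ± 0.30 with ponatinib 3 mg/kg (adjusted p = 0.473), and neither was called. DESeq2 gave an adjusted p of 0.0405 for the higher dose, the fit of the 2 groups alone 0.0465 and the fit of 48 mice without L-NAME 0.0499. Without control mouse 6 the log2 fold change was -0.49 at the higher dose (adjusted p = 0.32) and -0.30 at the lower (adjusted p = 0.877). With imatinib, nilotinib and L-NAME the log2 fold changes of Nqo1 were between -0.18 and 0.03.

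Hmox1, which encodes haem oxygenase 1, the enzyme that opens the haem ring, was not called in any group. Its lowest, median and highest levels were 27.3, 45.3 and 77.3 CPM in the control group, 39.6, 68.6 and 113 with ponatinib 3 mg/kg, 10.6, 35.1 and 47.7 with imatinib and 24.2, 45.0 and 69.5 at the higher ponatinib dose. The mice on ponatinib 3 mg/kg were the highest, 3 of 8 above every control mouse, and the mice on imatinib the lowest. The log2 fold change was 0.68 ± 0.26 with ponatinib 3 mg/kg (SE, unadjusted p = 0.00986, adjusted p = 0.316), -0.14 ± 0.26 with ponatinib 10 mg/kg (adjusted p = 0.801) and -0.62 ± 0.26 with imatinib (adjusted p = 0.118). With nilotinib 10 and 30 mg/kg it was 0.29 and 0.36, and with L-NAME 0.41, and none of these was called.

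Kupffer cells, the macrophages of the liver that clear old red cells, are a main site of Hmox1 expression, and their markers are given beside it. The 11 macrophage markers summed to between 991 and 1871 CPM in control mice and between 630 and 1238 with imatinib, where 4 of the 11 were called lower and none higher and the median log2 fold change was -0.65. The sum lay between 776 and 2114 CPM with ponatinib 3 mg/kg and between 567 and 2847 with ponatinib 10 mg/kg, where 2 markers were higher (Clec4f and Marco) and 1 lower (Cd68). Of all genes, 10.3% were called with imatinib and 13.1% with ponatinib 10 mg/kg, in either direction. Over the 56 mice, after subtraction of the group means, Hmox1 correlated with the log2 marker sum (Pearson's r = 0.57, Spearman's rho = 0.62, permutation adjusted p = 5e-05 and 5.4e-05 over 65 relations, from raw p-values of 1e-05, the smallest that 100000 permutations give). Without the 2 mice farthest from the median marker sum r was 0.56, and it was positive within each of the 7 groups, from 0.26 to 0.93. The other 9 members had r between -0.12 and 0.25 with the marker sum, none with an adjusted p below 0.05. The part of macrophages in the group differences of Hmox1 was not tested.

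**Figure D3:**
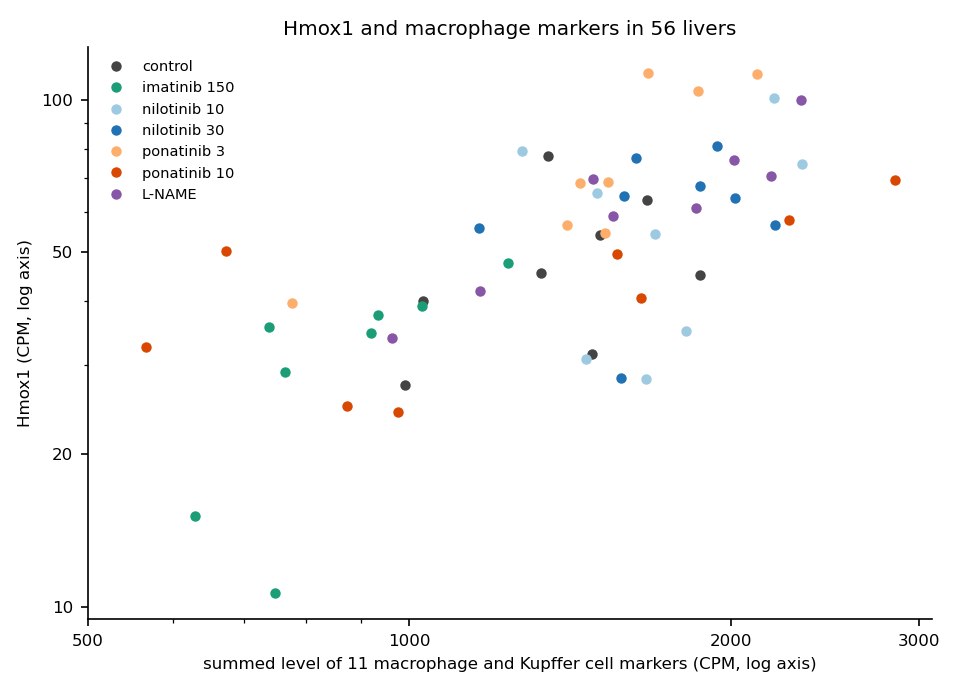
Hmox1 (y axis, CPM, log scale) is plotted against the summed level of 11 macrophage and Kupffer cell markers (x axis, CPM, log scale), with 1 point per mouse coloured by group. Imatinib livers lie at the lower left, between 630 and 1238 CPM of markers, and 3 of the ponatinib 3 mg/kg livers lie above every control liver for Hmox1.

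Other genes of carbonyl, quinone and haem handling, iron storage and export, many of them also NRF2 targets, were called lower with ponatinib 10 mg/kg in 4 of 16 cases and higher in 0. Abcc4, an export pump of the MRP family, fell from 40.5 ± 32.5 to 10.8 ± 6.00 CPM (SD, n = 8), a log2 fold change of -1.91 ± 0.44 (SE, adjusted p = 0.00182). Abcc3, a related pump for conjugates, fell by 0.65 on the log2 scale, Ugdh, which makes UDP-glucuronic acid, by 0.86, and Ephx1, microsomal epoxide hydrolase, by 0.48. With L-NAME, Abcc3 and Ugdh were lower and Blvrb, a biliverdin reductase, higher. With imatinib 4 of 16 were higher (Blvrb, Ephx1, Cbr1 and Fth1) and 0 lower. With nilotinib 30 mg/kg 3 were higher (Fth1, Blvrb and Osgin1), and with nilotinib 10 mg/kg and ponatinib 3 mg/kg 0 were called. Of all genes, 5.87% were called lower with ponatinib 10 mg/kg and 5.69% higher with imatinib. In either direction, 11.8% of all genes were called with L-NAME and 5.77% with nilotinib 30 mg/kg.

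Gstm1, a mu-class glutathione S-transferase, had the most reads of the members. Its lowest, median and highest levels were 982, 1454 and 2829 CPM in control mice, 1354, 2329 and 3310 with imatinib, 811, 1151 and 1293 with ponatinib 3 mg/kg and 904, 1489 and 1911 with ponatinib 10 mg/kg. The mean was highest with imatinib, 2280 ± 695 CPM against 1501 ± 598 (SD, n = 8), a log2 fold change of 0.60 ± 0.22 (SE, edgeR adjusted p = 0.0663). It was called by limma (0.75, adjusted p = 0.0041) and in edgeR without control mouse 6 (0.80, adjusted p = 0.0157). With ponatinib 3 mg/kg Gstm1 was at -0.43 ± 0.22 (adjusted p = 0.514), with all 8 mice below the control median, but with ponatinib 10 mg/kg at -0.08 ± 0.22, where its range lay within 904 and 1911 CPM. With L-NAME it was at 0.01 and with nilotinib 10 and 30 mg/kg at 0.11 and 0.40.

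Gsta2, an alpha-class transferase and one of the first genes in which an antioxidant response element was mapped, varied widely within groups. Its lowest, median and highest levels were 3.37, 17.8 and 49.2 CPM in the control group, 3.06, 5.97 and 18.2 with ponatinib 3 mg/kg and 2.59, 6.29 and 11.1 with ponatinib 10 mg/kg. All 8 mice on ponatinib 10 mg/kg were below the control median, but only 2 were below every control mouse. The mean fell from 20.6 ± 16.2 to 6.53 ± 3.23 CPM (SD, n = 8), a log2 fold change of -1.65 ± 0.58 (SE, edgeR adjusted p = 0.0456). With ponatinib 3 mg/kg the log2 fold change was -1.27 ± 0.57 (adjusted p = 0.427) and with L-NAME -0.84 ± 0.56 (adjusted p = 0.39). With imatinib and the doses of nilotinib it was between 0.12 and 0.26.

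The call of Gsta2 with ponatinib 10 mg/kg was close to the threshold and was lost in 12 of 16 fits that left out 1 mouse, with adjusted p-values between 0.0502 and 0.139 and log2 fold changes between -1.75 and -1.33. These were the fits without control mouse 1, 2, 5, 6 or 8 and without ponatinib 10 mg/kg mouse 1, 2, 4, 5, 6, 7 or 8. It was also lost in limma (-1.34, adjusted p = 0.272) and with reads outside genes as a covariate (-1.93, adjusted p = 0.134).

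Gsta1, the nearest relative of Gsta2, had few reads. In control mice its lowest, median and highest levels were 0, 1.86 and 16.0 CPM (0 to 182 reads), 2 of 8 mice having no read. With ponatinib 3 mg/kg 6 of 8 mice had no read, with nilotinib 10 mg/kg 4, and with imatinib, nilotinib 30 mg/kg, ponatinib 10 mg/kg and L-NAME 3 each. The log2 fold changes were -3.11 ± 1.32 with ponatinib 3 mg/kg and -2.37 ± 1.26 with ponatinib 10 mg/kg (SE), but the 95% interval of the latter ran from -4.88 to 0.14, and no group was called. Multiply aligned reads went to neither gene, so the split between Gsta1 and Gsta2 is uncertain. With the reads of both added, the sum fell from 23.9 ± 20.9 to 7.16 ± 3.43 CPM with ponatinib 10 mg/kg (SD, n = 8), a log2 fold change of -1.74 ± 0.60 (SE, adjusted p = 0.0435). The sum lost its call in limma (adjusted p = 0.282), with reads outside genes as a covariate (adjusted p = 0.141), and without control mouse 1, 2, 5 or 6 or ponatinib 10 mg/kg mouse 1, 4, 5, 6 or 8 (adjusted p between 0.0565 and 0.157).

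The 18 other glutathione S-transferases did not fall together with ponatinib 10 mg/kg, 1 being lower, 1 higher and the remaining 16 not called, with a median log2 fold change of 0.16. Gstm3, of the mu class, was the lower gene, from 222 ± 194 to 77.3 ± 35.3 CPM (SD, n = 8), a log2 fold change of -1.53 ± 0.45 (SE, adjusted p = 0.0167), and Mgst1, a microsomal transferase, the higher one (0.35 ± 0.10). With imatinib 7 of the 18 were higher and 0 lower, Gstt2 by 1.07 ± 0.28, Gstt3 by 0.75 ± 0.20, Mgst1 by 0.54 ± 0.10 and Gstt1 by 0.53 ± 0.12. With L-NAME 2 were higher, with nilotinib 30 mg/kg 2, and with nilotinib 10 mg/kg and ponatinib 3 mg/kg 0. Of all genes, 5.69% were called higher with imatinib and 5.55% with L-NAME. In either direction, 13.1% of all genes were called with ponatinib 10 mg/kg and 5.77% with nilotinib 30 mg/kg.

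**Figure D4:**
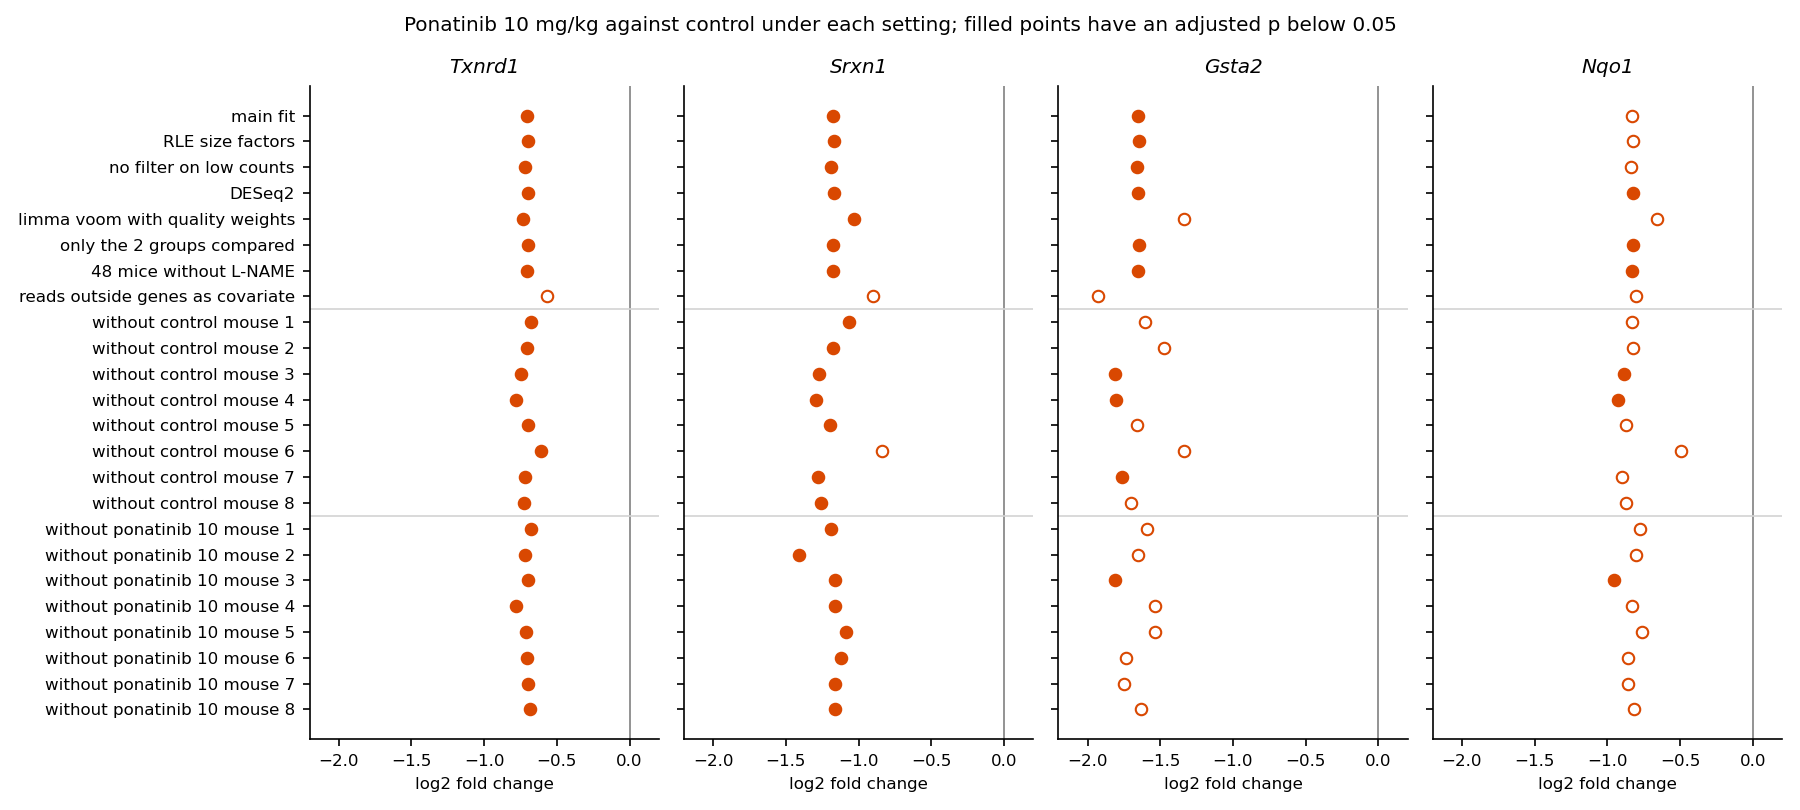
The log2 fold change of Txnrd1, Srxn1, Gsta2 and Nqo1 with ponatinib 10 mg/kg (x axis) is plotted for the fit reported, 7 other settings, and the fits that leave out 1 control or 1 ponatinib 10 mg/kg mouse (y axis); filled points have an adjusted p below 0.05. Every point lies below 0, Txnrd1 lost its call only with the covariate, Srxn1 with the covariate and without control mouse 6, and Gsta2 in most fits with a mouse left out.

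Cell type markers were measured beside these differences. With ponatinib 10 mg/kg, 2 of 8 hepatocyte markers were higher (Trf and Ttr) and 1 lower (Cps1), and their sum was between 76457 and 139579 CPM, compared with 78640 to 139196 in control mice. Of 8 markers of pericentral hepatocytes, which surround the central vein and hold much of the xenobiotic metabolism, 1 was lower (Oat), and the sums were 7035 to 13068 and 6909 to 15905 CPM. Of 6 stellate cell markers 1 was lower (Col1a1), and 0 of 6 endothelial and 0 of 4 cholangiocyte markers were called. The median log2 fold change of the endothelial markers was -0.48 at the higher and -0.58 at the lower dose of ponatinib, and that of the stellate cell markers -0.34 and -0.33, where the members' medians were -0.53 and -0.52. The endothelial sums were 107.6 to 369.6 CPM in the control group, 79.5 to 214 at the higher and 85.4 to 199 at the lower dose of ponatinib, and the stellate cell sums 265 to 700.1, 123 to 430.2 and 239 to 473 CPM. With L-NAME 1 hepatocyte marker was higher and 3 lower, 1 pericentral marker lower and 1 macrophage marker higher. Of all genes, 13.1% were called with ponatinib 10 mg/kg and 11.8% with L-NAME, in either direction. The part of cell composition in the values of the members was not tested.

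The doses of a drug were also compared directly, as were ponatinib and nilotinib at the same dose of 10 mg/kg. This was the higher dose of ponatinib and the lower dose of nilotinib. The study found exposures similar to those of patients at the lower dose of each drug, so exposure was not matched here. Between nilotinib 30 and 10 mg/kg edgeR called 0 members and 0% of all genes, no member had an unadjusted p below 0.05, which 5.67% of all genes had, and DESeq2 and limma also called 0. The share of genes with an unadjusted p below 0.01 was 1.32%. Apart from Gsta1, with few reads, the largest difference was that of Gclc, 0.33 ± 0.22 (log2, SE, adjusted p = 0.969), with a 95% interval from -0.11 to 0.78.

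Between ponatinib 10 and 3 mg/kg edgeR and limma called 0 members, beside 1.39% of all genes in edgeR, and DESeq2 called Hmox1. Hmox1 was at -0.82 ± 0.26 on the log2 scale (SE, edgeR adjusted p = 0.0891, DESeq2 adjusted p = 0.0382), its median being 45.0 CPM compared with 68.6. It was the only member with an unadjusted p below 0.01, which 5.78% of all genes reached, and 3 members were below 0.05, beside 14.4% of all genes. Txnrd1 was at -0.40 ± 0.16 (adjusted p = 0.19), Gclc at 0.26 ± 0.22 and Gstm1 at 0.35 ± 0.22. The value of Gclc was 0.02 without ponatinib 10 mg/kg mouse 4 and 0.03 in limma. The 95% intervals of Srxn1, Nqo1 and Gsta2, from -0.64 to 0.66, -0.81 to 0.41 and -1.55 to 0.78, included 0 and leave room for sizeable differences either way.

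Between ponatinib and nilotinib at 10 mg/kg edgeR, DESeq2 and limma called 0 members, beside 2.06% of all genes in edgeR. An unadjusted p below 0.01 was reached by 2 members, beside 6.73% of all genes, and below 0.05 by 3, beside 15.3%. Srxn1 was at -0.97 ± 0.33 (log2, SE, adjusted p = 0.096), and was called without ponatinib 10 mg/kg mouse 2 (-1.20, adjusted p = 0.0316). Gsta2 was at -1.77 ± 0.58 (adjusted p = 0.0841) and Nqo1 at -0.66 ± 0.31 (adjusted p = 0.281). Txnrd1 was at -0.31 ± 0.16 (adjusted p = 0.34).

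Within groups, several members were often highest in the same mouse. Control mouse 6 was the highest of its group in 6 members (Nqo1, Srxn1, Txnrd1, Gsta1, Gsta2 and Gstm1), nilotinib 10 mg/kg mouse 4 in 5, nilotinib 30 mg/kg mouse 7 in 7 and L-NAME mouse 7 in 7. No mouse of the imatinib or ponatinib groups was the highest in more than 4. Nilotinib 30 mg/kg mouse 7 had 323 CPM of Srxn1, 35.0 of Nqo1, 73.2 of Gsta2 and 3859 of Gstm1, and control mouse 6 had 287, 47.9, 49.2 and 2829 CPM of these genes. In the 16 ponatinib mice the highest levels of the same genes were 103, 18.1, 18.2 and 1911 CPM, which are below those of both mice. The same held with L-NAME, where the highest levels were 108, 30.1, 30.8 and 2676 CPM. With imatinib they were 112, 30.2, 46.0 and 3310 CPM, of which only that of Gstm1 was above control mouse 6.

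**Figure D5:**
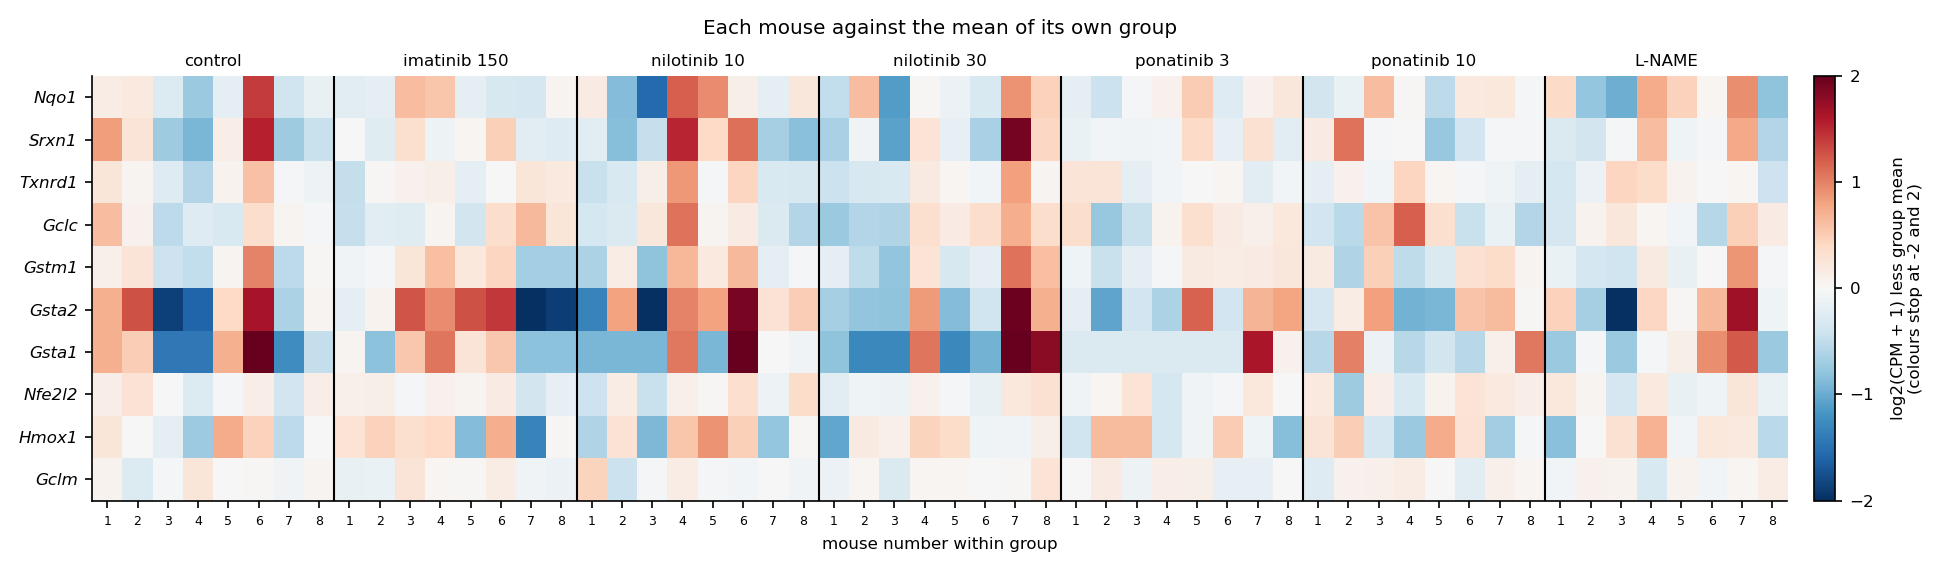
Each column is 1 of the 56 mice, numbered within its group, each row is 1 member, and the colour gives log2(CPM + 1) less the mean of the mouse's own group, from blue (lower) to red (higher). Control mouse 6, nilotinib 10 mg/kg mouse 4, nilotinib 30 mg/kg mouse 7 and L-NAME mouse 7 are red in most of the rows from Nqo1 to Gsta1, while Hmox1 and Gclm follow other patterns.

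Over the 56 mice, after subtraction of the group means, 41 of the 45 pairs of members had a positive Pearson's r, and 22 pairs had adjusted p-values below 0.05 for both r and Spearman's rho (permutation tests, adjusted over 65 relations), all of them positive. Values from 1 library share its depth and composition, which such correlations also carry. Gsta2 and Gstm1 were the closest pair (r = 0.80, rho = 0.88), followed by Gsta1 and Gstm1 (r = 0.72, rho = 0.70), Srxn1 and Gsta1 (r = 0.72, rho = 0.68) and Srxn1 and Txnrd1 (r = 0.71, rho = 0.55). Their permutation adjusted p-values were 5e-05 for r in each pair and between 5.4e-05 and 0.00032 for rho. Without the 2 mice farthest from the median of the second gene, r was 0.80, 0.66, 0.66 and 0.59. For Gsta2 and Gstm1 r was positive within all 7 groups, from 0.70 to 0.95, whereas for Srxn1 and Txnrd1 it ranged from -0.34 to 0.92 and was positive in 5 groups.

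Nfe2l2 itself correlated with Gstm1 (r = 0.68, rho = 0.71, permutation adjusted p = 5e-05 and 5.4e-05) and with Gsta2 (r = 0.62, rho = 0.62, adjusted p = 5e-05 and 0.0001), but not with Txnrd1 (r = 0.07, rho = 0.0012, adjusted p = 0.74 and 0.99). The value of r was 0.65 for Gstm1 and 0.66 for Gsta2 without the 2 farthest mice. Within groups it was positive in 6 of 7 for Gstm1, from -0.11 to 0.84, and in all 7 for Gsta2, from 0.15 to 0.86. Gclm stood apart from its partner subunit Gclc (r = 0.23, rho = 0.27, permutation adjusted p = 0.16 and 0.094) and had no pair past the threshold in both measures. The share of reads outside genes had r between -0.21 and 0.29 with the members, none with an adjusted p below 0.05, though rho with Txnrd1 was -0.36 (permutation adjusted p = 0.022).

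The gene outside the members that was most like each of them over the 56 mice, by r of log2 CPM after subtraction of group means, is given for each member. It was Gstm3 for Gstm1 (r = 0.91), Gsta1 (r = 0.75) and Gsta2 (r = 0.74), Anxa5, an annexin, for Srxn1 (r = 0.86), and Sqstm1, which encodes the autophagy receptor p62 and binds KEAP1, for Txnrd1 (r = 0.77). It was Tex2 for Gclc (r = 0.84), Ephx1 for Nqo1 (r = 0.72), Procr for Hmox1 (r = 0.68), Gsta4 for Nfe2l2 (r = 0.67) and Zfp799 for Gclm (r = 0.59). The gene was picked as the highest of all genes tested, so the values are a description.

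Antioxidant enzymes that are not counted among NRF2 targets here were also measured. Of 19 such genes, 7 were higher and 1 lower with ponatinib 10 mg/kg, 6 higher and 2 lower with L-NAME, 7 higher and 0 lower with imatinib, 3 higher and 1 lower with nilotinib 30 mg/kg, 0 with ponatinib 3 mg/kg and 1 higher with nilotinib 10 mg/kg. Of all genes, 7.24% were called higher with ponatinib 10 mg/kg, 5.55% with L-NAME and 5.69% with imatinib, and the median log2 fold change of the list was 0.21, 0.28 and 0.30 in these groups. With nilotinib 30 and 10 mg/kg, 5.77% and 1.41% of all genes were called in either direction. Sod1, cytosolic superoxide dismutase, rose from 224 ± 43.9 CPM in control mice to 419 ± 97.6 with ponatinib 10 mg/kg (SD, n = 8; log2 fold change 0.90 ± 0.15, SE, adjusted p = 4.47e-05), to 389 ± 70.8 with L-NAME (0.79 ± 0.15) and to 429 ± 91.6 with imatinib (0.93 ± 0.15), and was also higher with nilotinib 10 and 30 mg/kg (0.53 ± 0.15 and 0.67 ± 0.15). Prdx5, a peroxiredoxin of mitochondria and peroxisomes, rose by 0.69 ± 0.12 with ponatinib 10 mg/kg, 0.70 ± 0.12 with L-NAME, 0.73 ± 0.12 with imatinib and 0.57 ± 0.11 with nilotinib 30 mg/kg. Cat, catalase, was lower with L-NAME (-0.43 ± 0.10) and with nilotinib 30 mg/kg (-0.32 ± 0.10). All these groups were compared with the same 8 control mice. The values of this and the other gene lists come from the fit reported, and no other setting or leave-out fit is given for them.

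Reporters of the other xenobiotic receptors were measured too, since AHR, CAR and PXR also induce glutathione S-transferases and Nqo1. Of 11 such genes tested, 5 were higher with imatinib and 0 lower, beside 5.69% of all genes called higher. Cyp1a1, a cytochrome P450 induced through AHR, rose from 0.90 ± 0.54 to 29.7 ± 14.3 CPM (SD, n = 8; log2 fold change 5.03 ± 0.72, SE, adjusted p = 4.15e-06), Cyp1a2 by 2.68 ± 0.18, Cyp2b10, a reporter of CAR, by 2.96 ± 0.64 and Cyp3a11, a reporter of PXR, by 0.56 ± 0.13. In the same livers the log2 fold change of Nqo1 was 0.03 ± 0.30 (adjusted p = 0.972), and 0.36 without control mouse 6 (adjusted p = 0.525). With nilotinib 30 mg/kg 1 reporter was higher (Cyp3a11), and with nilotinib 10 mg/kg, both doses of ponatinib and L-NAME edgeR called 0. Of all genes, 5.77% were called with nilotinib 30 mg/kg in either direction.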

How the data were processed

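The authors sequenced poly(A) RNA of whole liver and deposited, for each of 56 mice, the reads per gene counted on GRCm38. The labels' processing notes name TopHat2 2.0.14, Bowtie2 2.1.0, SAMtools 0.1.18 and HTSeq 0.6.1p1. These deposited counts are not normalized, list Ensembl identifiers and end with 5 summary lines, which were kept out of library sizes and tests. Multiply aligned reads were left uncounted. Symbols came from GENCODE vM21, which named 44585 of the 45513 identifiers.

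CPM were computed after TMM scaling. The 9 comparisons were tested in edgeR 4.0.16 (R 4.3.3) by the quasi-likelihood test, with 1 fit of all 56 mice, edgeR's filter on low counts (14314 genes left) and Benjamini-Hochberg adjustment over all genes, called below 0.05. The script was tested on simulated counts. Alternatives were RLE size factors, no filter, DESeq2 1.42.0, limma 3.58.1 with quality weights, the 2 groups compared alone, 48 mice without L-NAME, the share of reads outside genes as a covariate, an unadjusted p below 0.01, Gsta1 and Gsta2 added, and, chosen after the data were seen, each control, ponatinib 10 mg/kg and L-NAME mouse left out (24 fits). Correlations used log2 CPM (prior count 2) less the group mean and 100000 permutations. The labels give no batch or date. Replicate numbers follow the order of the samples and pair nothing. EdgeR's p-values set the difference between groups against the spread between mice of the same group, estimated from all 56 mice together. Reads were few for Gsta1, and for Gsta2 in several mice (0 reads in 1, 6 in another).

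The members and the gene lists were chosen with earlier results of these data known. Named genes are the 10 members, the gene most like each, and, from each list, up to 4 called genes with the lowest p per comparison. Keap1, and Bach1 with ponatinib 10 mg/kg, were named outside this rule after their values were seen.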

Additional observations from a re-analysis of the deposited data

Results flagged for a closer look

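In each group of 8 mice the highest and the lowest value of each member, 70 sets of values in all, were checked for standing apart from the rest on the log2(CPM + 1) scale. Chance flags about 1 in 20 such groups, and 6 values stood apart. Control mouse 6 was high in Nqo1 (47.9 CPM), and the same mouse was the highest control in 5 other members. Ponatinib 10 mg/kg mouse 4 was high in Txnrd1 (192 CPM) and was also the mouse with the highest Gclc of its group. L-NAME mouse 7 was high in Gstm1 (2676 CPM), and L-NAME mouse 4 low in Gclm (166 CPM). Nilotinib 30 mg/kg mouse 1 was low in Hmox1 (28.3 CPM). Ponatinib 3 mg/kg mouse 7 was high in Gsta1 (2.80 CPM), where 6 of the 8 mice had no read. In the direct comparisons of doses and drugs edgeR called no member, so no difference between treated groups is listed; DESeq2 called Hmox1 between the ponatinib doses (adjusted p = 0.0382).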

How the results depend on the processing

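Of 1519 log2 fold changes under alternatives, 60 had another sign than in the fit reported, none of them of a member called there. The 1519 include those at the unadjusted cut-off, which repeat the fit reported and could not change sign. They also include the sum of Gsta1 and Gsta2, set against each of these genes. The covariate for reads outside genes moved the count of members called from 3 to 0 with ponatinib 10 mg/kg and from 1 to 0 with L-NAME, where of all genes it left 369 instead of 1877 and 258 instead of 1688. All 8 mice of both groups were above every control mouse in this covariate, which cannot be told apart from treatment there. Over all genes limma called 3745 with ponatinib 10 mg/kg and 3739 with L-NAME. It called 3320 with imatinib, 571 with ponatinib 3 mg/kg and 1240 with nilotinib 10 mg/kg, where edgeR called 1471, 6 and 202. Limma called 1 member with imatinib and 1 with nilotinib 10 mg/kg instead of 0, the fit of the 2 groups alone 2 instead of 1 with L-NAME, and DESeq2 1 instead of 0 between the ponatinib doses. An unadjusted p below 0.01 gave 1 with imatinib, 3 with ponatinib 3 mg/kg, 1 between the ponatinib doses and 2 between ponatinib and nilotinib. With 1 mouse left out the count was 1 to 4 with ponatinib 10 mg/kg (1, Txnrd1, without control mouse 6), 0 to 1 with imatinib (1 without control mouse 6) and 0 to 1 between ponatinib and nilotinib (1 without ponatinib 10 mg/kg mouse 2). Gsta1 and Gsta2 counted together with ponatinib 10 mg/kg lost the call in limma (-1.34, adjusted p = 0.282), with the covariate (-1.96, adjusted p = 0.141) and in 9 of 16 fits with 1 mouse left out (all 16 fits, -1.90 to -1.33); against nilotinib 10 mg/kg the sum (-1.76) passed only the unadjusted cut-off. The cause of these changes was not tested. Gsta1, with 0 to 182 reads per mouse, is limited by depth.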
